A study of Homo sapiens with 8 samples.

Results

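The genes described here are 10 regulators and targets of the transcription factor NF-kB: its subunit genes RELA, RELB, NFKB1 and NFKB2, its inhibitors NFKBIA and TNFAIP3, the survival gene BIRC3, the adhesion receptor genes ICAM1 and VCAM1, and PTX3, a secreted pentraxin. They were chosen by symbol, and all 10 were found among the 60623 genes of the count table. ARPE-19, an established human cell line from the pigment epithelium of the retina, was profiled by poly(A) RNA sequencing after 24 h in 4 groups of 2 biological replicates: a vehicle of phosphate-buffered saline (control), 400 µg/mL of crude fucoidan, a sulfated polysaccharide of the brown seaweed Fucus vesiculosus (fucoidan), 200 µg/mL of SRM 1650b, a reference material of diesel particulate matter that the labels also call PM2.5 (particulate), or both agents given together at those doses (combination). DMSO was the solvent of the particulate stock and no library had it alone, so particles and solvent cannot be told apart. All 8 cultures had been grown in DMEM/F12 with 10% serum and were treated at about 80% confluence.

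NF-kB proteins are held in the cytoplasm by IkB proteins, of which the product of NFKBIA is the best known. In the canonical pathway a kinase complex marks IkB for destruction, and dimers that contain RELA enter the nucleus and switch on genes, among them NFKBIA and TNFAIP3 themselves, which close a negative feedback loop. A slower, noncanonical pathway processes the NFKB2 product and works through RELB. In the retinal pigment epithelium the pathway is known for controlling adhesion molecules and cytokines by which that layer meets leukocytes.

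The promoter windows are shown because kB sites near the start of transcription are the textbook link between NF-kB and these genes. RefSeq (GRCh38.p14) windows of 250 bases before to 50 after a start were found for 9 of the 10 genes, 13 windows in all. They were searched on both strands for the NF-kB consensus known as the kB motif, and overlapping matches were counted once. The pattern was GGGRNNYYCC, where R is A or G, Y is C or T and N is any base. Of the 13 windows, 8 (61.5%) held a match, against 11.3% of 35116 windows of all genes, and 4 (30.8%) held at least 2, against 0.994%. A match is a description of the letters and not evidence of binding. The members were chosen as regulators and targets of NF-kB, so a share above that of all genes is not a finding. The unit is the window and not the gene. The following 6 windows are printed 5′ to 3′ on the strand of the gene, with each match in capitals. They are chr14:35404700-35404999 (minus strand), chr6:137867009-137867308, chr4:102501109-102501408, chr11:102317234-102317533, chr1:100719492-100719791 and chr3:157436600-157436899 (plus strand).
NFKBIA: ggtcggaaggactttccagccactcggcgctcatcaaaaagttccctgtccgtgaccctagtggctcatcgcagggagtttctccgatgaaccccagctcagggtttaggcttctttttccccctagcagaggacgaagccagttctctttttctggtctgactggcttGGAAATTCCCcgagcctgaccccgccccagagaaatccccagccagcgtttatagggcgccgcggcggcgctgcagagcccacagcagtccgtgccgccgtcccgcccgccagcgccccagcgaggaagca
TNFAIP3: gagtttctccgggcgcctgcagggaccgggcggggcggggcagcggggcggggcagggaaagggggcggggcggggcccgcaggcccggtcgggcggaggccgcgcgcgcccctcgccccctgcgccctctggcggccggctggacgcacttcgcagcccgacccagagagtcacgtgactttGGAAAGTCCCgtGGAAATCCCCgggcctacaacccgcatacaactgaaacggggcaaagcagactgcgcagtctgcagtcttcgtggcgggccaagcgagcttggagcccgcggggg
NFKB1: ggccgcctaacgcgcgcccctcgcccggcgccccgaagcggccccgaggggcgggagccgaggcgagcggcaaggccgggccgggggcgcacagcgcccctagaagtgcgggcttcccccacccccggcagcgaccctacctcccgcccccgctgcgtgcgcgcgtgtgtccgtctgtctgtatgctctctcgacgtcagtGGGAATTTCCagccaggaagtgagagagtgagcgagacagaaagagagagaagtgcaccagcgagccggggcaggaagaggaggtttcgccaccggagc
BIRC3: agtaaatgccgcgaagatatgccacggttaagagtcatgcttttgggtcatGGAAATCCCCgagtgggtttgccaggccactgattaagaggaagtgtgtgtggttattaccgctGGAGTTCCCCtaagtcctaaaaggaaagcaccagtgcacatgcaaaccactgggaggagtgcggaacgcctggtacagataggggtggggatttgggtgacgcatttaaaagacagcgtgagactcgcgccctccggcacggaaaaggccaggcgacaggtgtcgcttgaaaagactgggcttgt
VCAM1: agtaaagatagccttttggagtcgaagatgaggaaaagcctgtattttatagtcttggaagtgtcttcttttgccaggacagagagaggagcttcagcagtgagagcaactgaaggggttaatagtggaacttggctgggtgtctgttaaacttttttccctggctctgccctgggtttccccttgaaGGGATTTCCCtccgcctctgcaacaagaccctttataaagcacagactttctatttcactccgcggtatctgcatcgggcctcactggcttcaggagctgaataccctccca
PTX3: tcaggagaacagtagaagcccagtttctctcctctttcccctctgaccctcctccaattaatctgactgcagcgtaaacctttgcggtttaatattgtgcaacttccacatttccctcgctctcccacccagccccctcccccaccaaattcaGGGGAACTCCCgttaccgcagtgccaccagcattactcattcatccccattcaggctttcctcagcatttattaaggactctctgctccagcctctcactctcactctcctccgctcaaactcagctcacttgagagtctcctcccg
TNFAIP3 and BIRC3 had 2 matches each in these windows, and NFKBIA, NFKB1, VCAM1 and PTX3 had 1. NFKB2 had 2 matches in each of 2 of its 3 windows, and the other window of NFKB1 had none. An exact match to the pattern was not found in the windows of ICAM1 and RELA. Close sequences that depart from it were not counted, such as ggaaattccg in the ICAM1 window and gggtttcccc in the VCAM1 window. The absence of a match is therefore not the absence of a kB site. The gene without a window was RELB.

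With 2 biological replicates a group, p-values measure the spread between these libraries, which the labels do not trace to separate cultures. Total counts ran from 12993565 to 17019284 per library. In bulk RNA, fewer cells of a type and less RNA per cell cannot be told apart. Keratin genes KRT8 and KRT18, MITF and OTX2 were expressed, but the visual-cycle gene RPE65 had 2 reads and the pigment genes TYR and TYRP1 had 24 and 15 over the 8 libraries. Markers of leukocytes were at or near 0 except ITGA4, 9 of 10 with 0 to 31 reads in all, and the 6 endothelial markers had 0 to 24. Their summed level ran from 25.8 to 62.5 CPM (normalised read counts, scaled to library size) for leukocytes, nearly all of it ITGA4, and from 0.256 to 0.702 CPM for endothelium. The whole list of 14 pigment epithelium markers summed to between 3449.8 and 3969 CPM in the 4 libraries without particulate. In the 4 with it the sum was between 1736 and 2286 CPM. Most of the reads in this sum came from KRT8 and KRT18, with 197252 and 127892 over the 8 libraries. No other listed marker had more than 10256. With particulate 8 of 11 tested markers fell and 1 rose, against 11.5% and 9.11% of all genes. The part of this shift in the results was not tested. The 2 combination replicates stood apart from each other. Of all tested genes, 13.2% differed at least 2-fold between them, against 2.64% to 5.89% in the other groups. A list of 12 glycolysis and hypoxia genes was chosen, with these data known, to mark libraries that stand apart. Its sum is therefore a description and not evidence that they do. It was 15566 CPM in combination replicate 1, the highest library. The sum was 3008 in combination replicate 2, the lowest, 3959.6 and 7245 in the particulate libraries and 6649 to 7720 in the other 4. Which combination replicate is the less typical was not tested. Many counts and member values that use the combination are therefore also given without replicate 1, and some without replicate 2. Medians and overlap counts are from all 8 libraries.

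Across the libraries, the 9 detected genes shared a pattern. They were lowest in the control and fucoidan libraries, higher in all 4 libraries with particulate, and highest in combination replicate 1, which held the top value for each of the 9, against 23.2% of all tested genes. In CPM the 4 libraries with particulate did not overlap the 4 without for any of the 9, against a background of 16.8% of genes that were higher in this way. In the deposited TPM the same held for 8, and NFKBIA overlapped, with 71.9 TPM in particulate replicate 1 and 72.9 in control replicate 1. The share of all genes separated in this way in TPM was not counted, so the 8 cannot be set against it. VCAM1 had no read in any library.

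**Figure D1:**
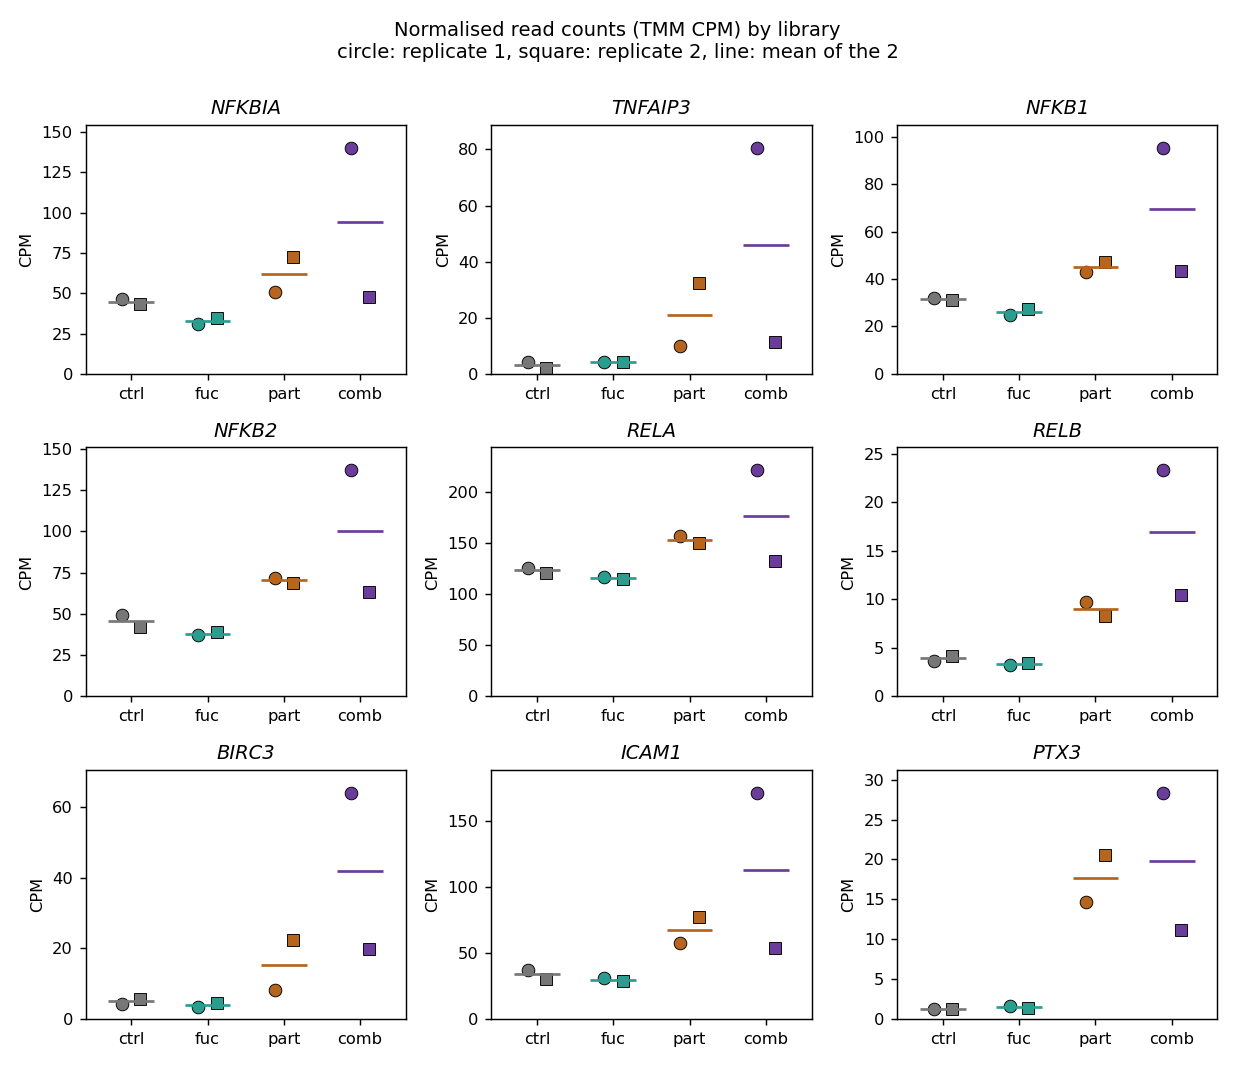
Normalised read counts (CPM, linear axis from 0) of the 9 detected genes in each of the 8 libraries. Points are libraries and lines are the means of 2 replicates, and combination replicate 1 is the highest point in each panel, for example at 80.6 CPM for TNFAIP3 and 171 CPM for ICAM1.

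NFKBIA encodes the inhibitor IkB alpha and lies on chromosome 14 at 35401511 to 35404749 (GRCh38, GENCODE 29, as for all gene positions here). Its levels were 46.7 and 43.1 CPM in control, 30.7 and 34.8 with fucoidan, 51.0 and 72.6 with particulate and 140.2 and 47.4 in the combination. The control and fucoidan libraries were separate, with fucoidan lower, while combination replicate 2 was close to control replicate 1. The log2 fold change (± its standard error, as throughout) was 0.46 ± 0.40, adjusted p = 0.453 for particulate against control, -0.45 ± 0.40, adjusted p = 0.999 for fucoidan against control and 1.06 ± 0.40, adjusted p = 0.0968 for the combination against control. None of these 3 passed the threshold, an adjusted p under 0.05 in edgeR's quasi-likelihood test fitted to all 8 libraries. The last of them turned on 1 library, and without combination replicate 1 it was 0.087 ± 0.21, adjusted p = 0.813, and without combination replicate 2 it was 1.64 ± 0.20, adjusted p = 0.000177. NFKBIA was thus near its control level in 1 combination library and well above it in the other, a ratio of 2.96 between the replicates.

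TNFAIP3 encodes a ubiquitin-editing enzyme that shuts off signalling upstream of the IkB kinases, and lies on chromosome 6 at 137867188 to 137883312. It had 4.11 and 2.17 CPM in control, 4.29 and 4.25 with fucoidan, 10.0 and 32.3 with particulate and 80.6 and 11.4 in the combination. Every library with particulate was above every library without, but the spread was wide, with 3.22-fold between the particulate replicates and 7.09-fold between the combination replicates. Against control its log2 fold change with particulate was 2.76 ± 0.87, which missed the threshold narrowly (edgeR adjusted p = 0.05001). Where particulate and control were fitted on their own (the pairwise fit) it was 2.75 ± 0.45, adjusted p = 0.000415. It was 3.41 ± 0.94, adjusted p = 0.0572, without particulate replicate 1 and 1.69 ± 0.98, adjusted p = 0.289, without particulate replicate 2. In the combination TNFAIP3 rose against control by 3.88 ± 0.88, adjusted p = 0.0181 (edgeR). That value was 1.87 ± 0.57, adjusted p = 0.0472, without combination replicate 1. The call was lost without control replicate 1 (adjusted p = 0.123), where the lone control library is assumed to vary like the other groups, and without control replicate 2 (adjusted p = 0.153). The inhibitors also shifted against each other. The ratio of TNFAIP3 to NFKBIA in TPM was 0.0416 and 0.0238 in the control libraries, 0.0659 and 0.0576 with fucoidan, 0.0930 and 0.210 with particulate and 0.272 and 0.113 in the combination.

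RELA, the transactivating subunit of the canonical dimer, lies on chromosome 11 at 65653596 to 65663094 and was the most even of the detected genes. Its levels were 125 and 121 CPM in control, 117 and 114 with fucoidan, 157 and 149.5 with particulate and 221 and 132 in the combination. Apart from combination replicate 1, its libraries lay between 114 and 157 CPM. The log2 fold change against control was 0.31 ± 0.21, adjusted p = 0.336 with particulate and 0.52 ± 0.21, adjusted p = 0.121 in the combination. Neither passed in edgeR's fit. Over the 8 fits without 1 library, the combination value ran from 0.11 to 0.84. RELA is 1 of the 2 genes that did not pass in the pairwise fit of particulate and control either (adjusted p = 0.146). The other was NFKBIA (adjusted p = 0.0921).

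NFKB1 (chromosome 4 at 102501329 to 102617302) and NFKB2 (chromosome 10 at 102394110 to 102402529) encode precursors that are cut to DNA-binding partners of RELA and RELB. NFKB1 had 31.9 and 31.2 CPM in control, 24.9 and 27.2 with fucoidan, 43.0 and 47.3 with particulate and 95.4 and 43.5 in the combination. NFKB2 had 49.2 and 42.1 CPM in control, 36.9 and 38.9 with fucoidan, 71.5 and 68.9 with particulate and 137 and 63.4 in the combination. Both genes showed the same picture: the 3 libraries with particulate other than combination replicate 1 lay close together, and that library stood further above them than they stood above control. With particulate the log2 fold change against control was 0.52 ± 0.30, adjusted p = 0.256 for NFKB1 and 0.62 ± 0.29, adjusted p = 0.166 for NFKB2. Neither passed with all 8 libraries (edgeR), and both did in the pairwise fit (adjusted p = 0.0377 and 0.0144). In the combination NFKB1 rose by 1.14 ± 0.30, adjusted p = 0.0314 and NFKB2 by 1.13 ± 0.29, adjusted p = 0.0298 (edgeR). Without combination replicate 1 these were 0.47 ± 0.16, adjusted p = 0.0751, for NFKB1 and 0.48 ± 0.16, adjusted p = 0.0686, for NFKB2, so both calls were lost. They were also lost without control replicate 1 or 2 (adjusted p from 0.156 to 0.195) and without fucoidan replicate 1 or 2 (adjusted p from 0.0531 to 0.0563). NFKB1 alone was lost without particulate replicate 2 (adjusted p = 0.0508) and with the replicate number as a block (adjusted p = 0.0516).

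RELB, the subunit of the noncanonical pathway, lies on chromosome 19 at 45001430 to 45038198 and had the largest fold changes of the 4 subunit genes against control, both with particulate and in the combination. It had 3.61 and 4.22 CPM in control, 3.20 and 3.47 with fucoidan, 9.69 and 8.31 with particulate and 23.3 and 10.5 in the combination, from 41 to 350 reads a library. The lowest library with particulate had 8.31 CPM and the highest without had 4.22 CPM. RELB rose with particulate by 1.20 ± 0.35, adjusted p = 0.0404 (edgeR), one of 2 members to do so. That call was lost in the fits without either control, either fucoidan or either particulate library (adjusted p from 0.0647 to 0.238), and with the replicate number as a block (adjusted p = 0.0508). It was kept without combination replicate 1 (1.20 ± 0.19, adjusted p = 0.000835). In the combination RELB rose by 2.10 ± 0.35, adjusted p = 0.00487, or 1.42 ± 0.22, adjusted p = 0.00196, without combination replicate 1. This call was lost without control replicate 1 or 2 (adjusted p = 0.0756 and 0.0516). RELB is the only member for which both combination libraries lay above both particulate libraries.

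BIRC3 encodes an inhibitor-of-apoptosis ubiquitin ligase that acts at the tumour necrosis factor receptor and lies on chromosome 11 at 102317450 to 102339403. Its levels were 4.32 and 5.62 CPM in control, 3.35 and 4.49 with fucoidan, 8.30 and 22.3 with particulate and 64.0 and 19.8 in the combination. Particulate replicate 1 was the lowest of the libraries with particulate, 2.69-fold below its replicate. With particulate the fold change did not pass with all 8 libraries in edgeR (1.62 ± 0.58, adjusted p = 0.0788) and did in the pairwise fit (1.60 ± 0.36, adjusted p = 0.00417). Its log2 fold change was 2.20 ± 0.59, adjusted p = 0.0524, without particulate replicate 1 and 0.74 ± 0.63, adjusted p = 0.468, without particulate replicate 2. In the combination BIRC3 rose by 3.07 ± 0.59, adjusted p = 0.00894 (edgeR), or 2.00 ± 0.43, adjusted p = 0.0114, without combination replicate 1. The call was lost without control replicate 1 or 2, where the adjusted p was 0.114 and 0.0803. Between the particulate replicates a difference of 2-fold or more was found for 2 members, TNFAIP3 and BIRC3, with replicate 2 higher for both, against 5.89% of all genes.

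ICAM1, the receptor that binds leukocyte integrins, lies on chromosome 19 at 10270835 to 10286615. It had 37.2 and 30.4 CPM in control, 31.0 and 28.6 with fucoidan, 57.3 and 77.2 with particulate and 171 and 53.6 in the combination. Control and fucoidan overlapped, and combination replicate 2 was below both particulate libraries. With particulate the log2 fold change was 0.99 ± 0.42, adjusted p = 0.131 with all 8 libraries in edgeR and 0.98 ± 0.19, adjusted p = 0.00173, in the pairwise fit. In the combination ICAM1 rose by 1.73 ± 0.43, adjusted p = 0.0250 (edgeR), but only by 0.67 ± 0.21, adjusted p = 0.0496, without combination replicate 1. The call was lost without control replicate 1 or 2 (adjusted p = 0.150 and 0.178).

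VCAM1, the receptor for the integrin that contains the ITGA4 product, lies on chromosome 1 at 100719742 to 100739045 and had 0 of 125876803 counts over the 8 libraries. A floor of 3 counts over all libraries allows a level of up to 0.0238 CPM, which covers counting error only. The gene was below detection in all 4 groups and no fold change was computed. ITGA4 itself was detected, at 25.4 to 62.0 CPM.

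PTX3 encodes a secreted pentraxin of innate immunity that binds microbes and complement and is made by many cell types. It lies on chromosome 3 at 157436789 to 157443628. It had 1.27 and 1.28 CPM in control, 1.56 and 1.38 with fucoidan, 14.6 and 20.6 with particulate and 28.4 and 11.2 in the combination, from 18 to 426 reads a library. The highest library without particulate had 1.56 CPM and the lowest with it 11.2 CPM, the widest separation in fold among the 9 genes. PTX3 rose with particulate by 3.78 ± 0.46, adjusted p = 0.000603 and in the combination by 3.94 ± 0.46, adjusted p = 0.000827 (edgeR, both against control). Both calls were kept in all 8 fits that left out 1 library, from 3.51 to 4.04 with particulate and from 3.13 to 4.47 in the combination. PTX3 overlaps VEPH1 on the opposite strand, with 71 shared exon bases, and whether strand was used in counting is not stated. VEPH1 had 5130 reads in all, at 39.1 and 44.2 CPM in control and 35.4 and 39.0 CPM with particulate, a log2 fold change of -0.16 ± 0.15 (edgeR adjusted p = 0.483). Genes on the opposite strand that share exon bases with TNFAIP3 (95 bases), RELA (9 bases) and ICAM1 (815 and 61 bases, in 2 genes) had 21, 166, 0 and 1 reads in all.

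Particulate against control addressed what the particles with their solvent did to these genes without fucoidan. All 9 tested genes had a positive log2 fold change, with a median of 0.99 against 0.011 for all tested genes, and 2 of the 9 rose, RELB and PTX3. Of all 15010 tested genes, 9.11% rose. All 9 did not overlap between the groups, against 32.7% of all genes that were higher in this way. In the pairwise fit 7 of 9 rose, against 13.6% of all genes, and the same number rose without combination replicate 1 (15.9% of all genes) or without combination replicate 2 (15.7%). Without a filter on low counts 6 rose (6.37% of all genes), as did 6 in limma-voom with sample weights (12.9%). The 4 groups share 1 estimate of the spread, and 8 of the 9 genes differed at least 2-fold between the combination replicates, against 13.2% of all genes. In control and in fucoidan none of the 9 did, against 2.77% and 2.64% of genes.

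**Figure D2:**
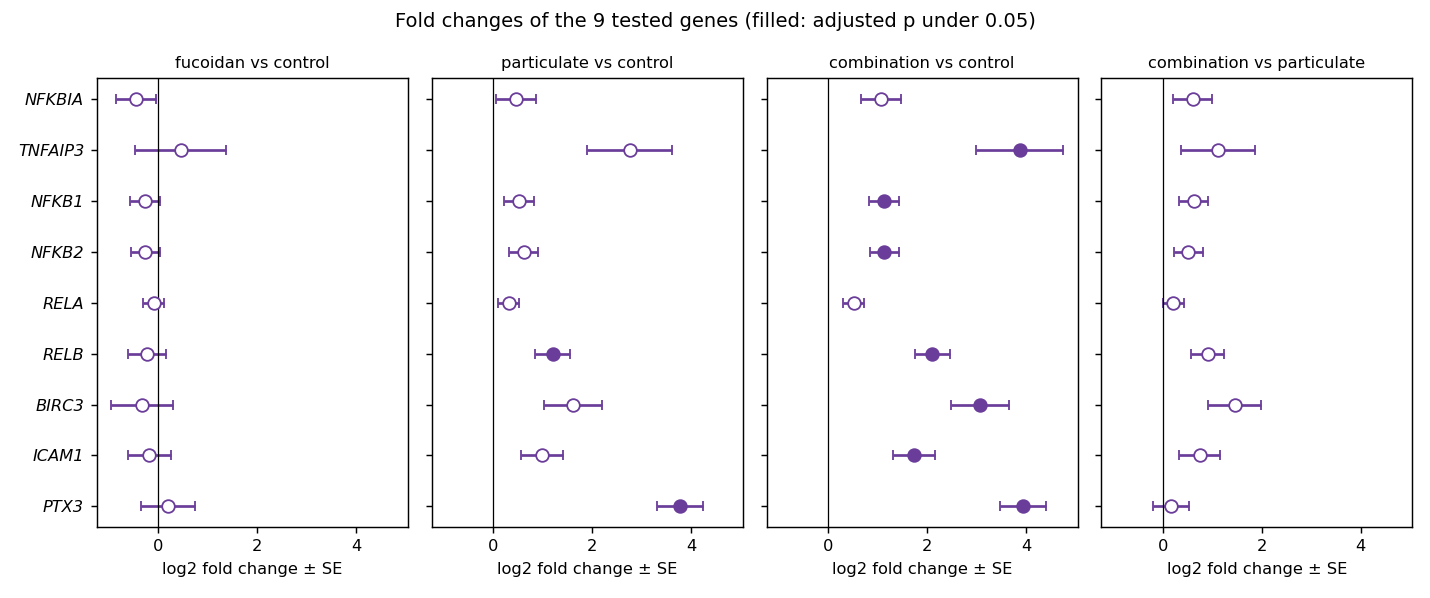
Log2 fold changes with their standard errors (edgeR, all 8 libraries) of the 9 tested genes in 4 comparisons, on 1 linear axis, with filled points where the adjusted p was under 0.05. Fucoidan against control holds no filled point, particulate against control 2, the combination against control 7 and the combination against particulate none.

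Fucoidan against control addressed what fucoidan did alone. No member passed, and neither did any of the 15010 genes in edgeR's test (0%). No member had an unadjusted p under 0.05, against 4.41% of all genes, and DESeq2 and limma-voom also called 0 of the 9. The median log2 fold change was -0.23. For 5 of the 9 genes, NFKBIA, NFKB1, NFKB2, RELA and RELB, both fucoidan libraries lay below both control libraries, against 24.8% of all genes. TNFAIP3 and PTX3 lay above them, against 23.2% of all genes, and BIRC3 and ICAM1 overlapped. With fucoidan and control fitted on their own 1 member, NFKBIA, fell (-0.44 ± 0.11, adjusted p = 0.0143), where 2.61% of all genes fell.

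The comparison of the combination with control had 7 of 9 members higher and none lower, against 8.17% of all genes that rose. The groups did not overlap for any of the 9, against 30.9% of all genes. The 2 that did not pass were NFKBIA and RELA. The median log2 fold change was 1.73 against 0.016 for all tested genes. Without combination replicate 1, 5 of 9 passed, TNFAIP3, RELB, BIRC3, ICAM1 and PTX3, against 7.36% of all genes, and without combination replicate 2 all 9 did, against 17.5%. With the combination and control fitted on their own 3 passed, RELB, BIRC3 and PTX3, against 2.99% of all genes. Without control replicate 1 or without control replicate 2 only PTX3 passed, where 0.682% and 1.07% of all genes rose. Against fucoidan, 8 of 9 rose in the combination, all but RELA, where 10.2% of all genes rose, and 6 of 9 did without combination replicate 1 (10.2% of all genes). That count was 2 without fucoidan replicate 1 (1.48% of all genes) and 3 without fucoidan replicate 2 (1.85%). It was also 3 with these groups fitted on their own, against 4.4% of all genes. The comparisons with control share the control libraries, so their values are not separate evidence.

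The combination against particulate addressed what fucoidan did when it was given with the particles. No member passed in edgeR's fit, against 0.0866% of all genes, 2 of the 9 (RELB and BIRC3) had an unadjusted p under 0.05, against 17.3% of all genes, and DESeq2 and limma-voom also called none. All 9 log2 fold changes were positive, from 0.16 for PTX3 to 1.45 for BIRC3, with a median of 0.62, and RELB was the one gene whose groups did not overlap, against 20.9% of all genes. Without a filter on low counts 4 members rose, against 3.53%. The direction rested on 1 library. Without combination replicate 1, 7 of the 9 turned negative, none passed, and 0.33% of all genes rose. Without combination replicate 2, all 9 rose, where 12.4% of all genes did. TNFAIP3 was the widest case, at -0.89 ± 0.52, adjusted p = 0.470, without replicate 1 and 1.93 ± 0.45, adjusted p = 0.0132, without replicate 2. Only RELB and BIRC3 stayed positive without replicate 1, at 0.22 ± 0.21, adjusted p = 0.637, and 0.38 ± 0.41, adjusted p = 0.681. The summed glycolysis and hypoxia genes also differed between the combination replicates, as given above, and their part in these values was not tested.

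**Figure D3:**
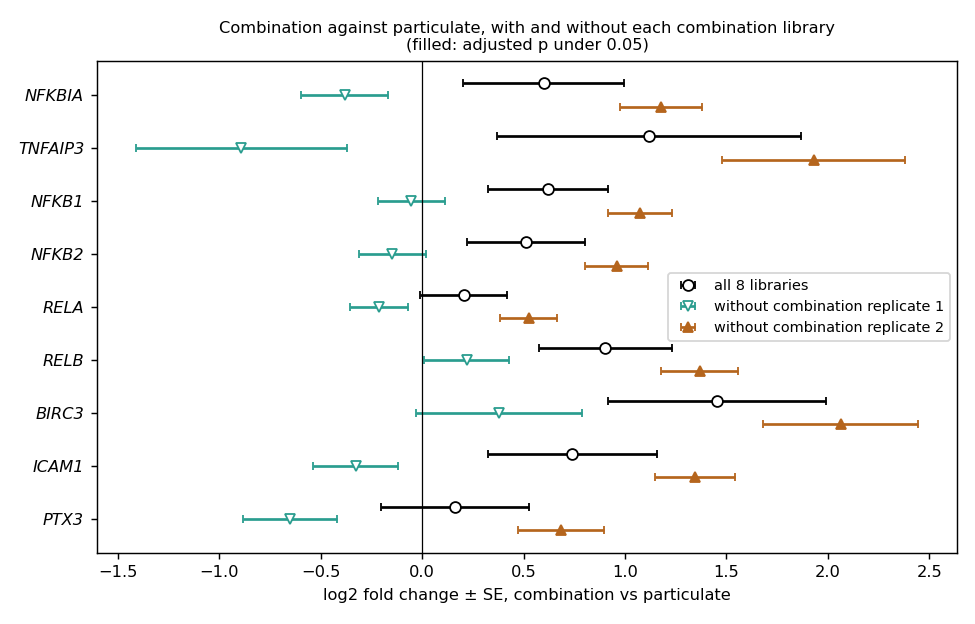
Log2 fold changes with standard errors (edgeR) of the combination against particulate for the 9 tested genes, from all 8 libraries, without combination replicate 1 and without combination replicate 2, with filled points where the adjusted p was under 0.05. The points without replicate 1 lie from -0.89 to 0.38 and those without replicate 2 from 0.53 to 2.06.

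The interaction asked whether the effect of particulate differed with and without fucoidan. No member passed in edgeR's fit, where 0% of all genes did, 1 of the 9 (RELB) had an unadjusted p under 0.05, against 4.45% of all genes, and DESeq2 and limma-voom called none. The log2 interaction was positive for 8 of 9 genes, with a median of 0.90, and slightly negative for PTX3 (-0.030 ± 0.64, adjusted p = 0.995). Without combination replicate 2, 6 of 9 passed (3.61% of all genes higher), and without combination replicate 1 none did.

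Per transcript length, the control levels in deposited TPM ran in the order RELA, NFKBIA, ICAM1, NFKB2, NFKB1, RELB, PTX3, BIRC3 and TNFAIP3. RELA had 85.2 and 78.5 TPM and NFKBIA 72.9 and 64.3 TPM in control. ICAM1 (40.0 and 31.2 TPM) and NFKB2 (38.7 and 31.7 TPM) overlapped in control, as did BIRC3 (2.13 and 2.65 TPM) with PTX3 (2.51 and 2.40 TPM) and with TNFAIP3 (3.03 and 1.53 TPM). The genes therefore fell into an abundant group, RELA to NFKB1, and a scarce group, RELB to TNFAIP3, at no more than 4.96 TPM in control. With particulate the scarce genes came closer to the abundant ones: PTX3 reached 26.0 and 41.9 TPM, beside NFKB1 at 22.6 and 28.5 TPM. In combination replicate 1 the most abundant was NFKBIA, at 207 TPM, with ICAM1 at 174 TPM and RELA at 142 TPM.

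**Figure D4:**
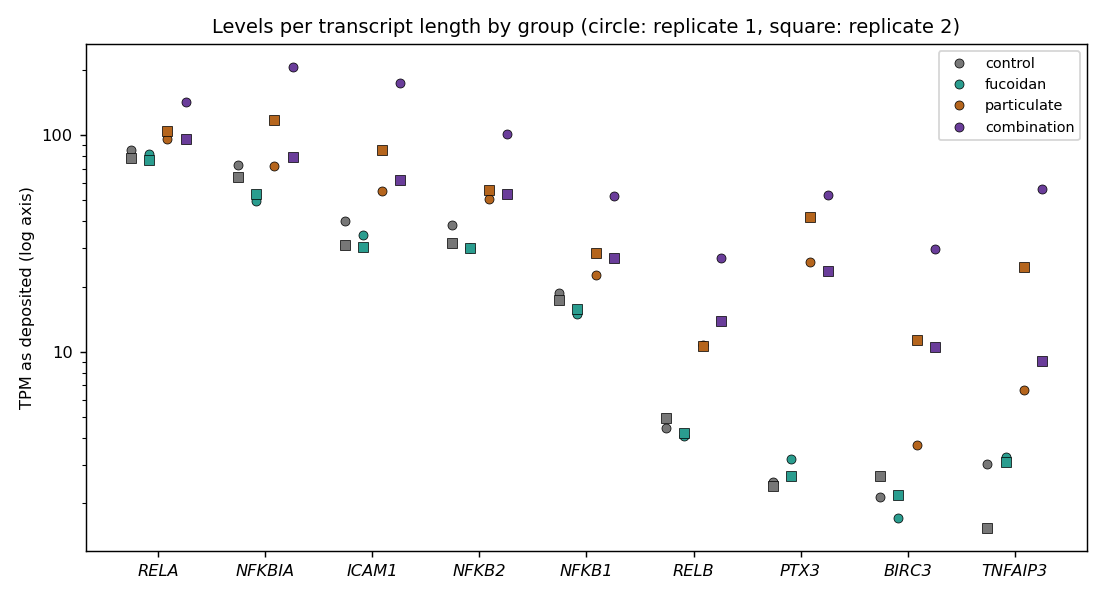
Deposited TPM (log axis) of the 9 detected genes by group, ordered by their control mean, with circles for replicate 1 and squares for replicate 2. RELA spans less than the other genes, from 76.7 to 142 TPM, and PTX3 goes from 2.40 TPM in control replicate 2 to 52.8 TPM in combination replicate 1.

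Another 77 genes of the pathway, listed by role, gave the setting of these members, and 59 were tested. The others had too few reads, except that 7 of the 8 survival and feedback genes were found by symbol. With particulate 10 of the 59 rose and 6 fell, against 9.11% and 11.5% of all genes, with a median log2 fold change of 0.19. In the combination 12 rose and 4 fell, against 8.17% and 8.86%, and 7 rose and 4 fell without combination replicate 1. None passed for fucoidan against control or for the combination against particulate in edgeR's test.

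Among receptors and adaptors, 3 of 14 rose with particulate and none fell. IL1R1, the interleukin 1 receptor, went from 2.12 and 2.43 CPM in control to 8.01 and 10.9 CPM with particulate and 10.5 and 9.42 CPM in the combination (2.05 ± 0.25, adjusted p = 0.000659 and 2.12 ± 0.25, adjusted p = 0.000958, edgeR). Every library with particulate lay above every library without, and both calls were kept in the 8 fits without 1 library. The adaptor kinase gene RIPK1 (0.49 ± 0.14, adjusted p = 0.0355) and the receptor-associated kinase gene IRAK4 (0.56 ± 0.17, adjusted p = 0.0476) rose less. In the combination 4 of 14 rose, these 3 and TRAF6, a ubiquitin ligase downstream of interleukin 1 and Toll-like receptors (0.74 ± 0.21, adjusted p = 0.0406). TRAF6 did not pass between the combination and particulate (0.55 ± 0.21, adjusted p = 0.256, edgeR). Of the 12 kinase and linear ubiquitin ligase genes, only CHUK, an IkB kinase, passed with particulate (0.65 ± 0.18, adjusted p = 0.0326). Only TBK1, a related kinase, passed in the combination (0.96 ± 0.24, adjusted p = 0.0239). CHUK in the combination (0.54 ± 0.18, adjusted p = 0.0674) and TBK1 with particulate (0.69 ± 0.23, adjusted p = 0.0674) missed the threshold. Neither gene passed between the combination and particulate (adjusted p = 0.770 and 0.532, edgeR). In the noncanonical arm, the receptor genes LTBR (0.79 ± 0.16, adjusted p = 0.00857) and TNFRSF12A (0.53 ± 0.15, adjusted p = 0.0385) passed with particulate. BIRC2, the close relative of BIRC3, and the adaptor gene TRAF3 passed in the combination (0.81 ± 0.19, adjusted p = 0.0192 and 0.60 ± 0.16, adjusted p = 0.0314). LTBR and TNFRSF12A had 0.43 ± 0.16 and 0.49 ± 0.15 in the combination (adjusted p = 0.0926 and 0.0556). BIRC2 and TRAF3 had 0.36 ± 0.19 and 0.37 ± 0.16 with particulate (adjusted p = 0.204 and 0.128). None of these genes passed between the combination and particulate (adjusted p from 0.269 to 0.917, edgeR).

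Other inhibitors moved both ways. NFKBIB, a second IkB gene, rose with particulate (0.91 ± 0.22, adjusted p = 0.0196), while BCL3, an atypical nuclear IkB, fell (-1.01 ± 0.22, adjusted p = 0.0105). TNIP2, which binds the TNFAIP3 product, rose (0.65 ± 0.19, adjusted p = 0.0391) and ZC3H12A, a ribonuclease that degrades cytokine messages, fell (-0.71 ± 0.18, adjusted p = 0.0226). Among survival and feedback targets, TRAF1, a signalling adaptor, rose with particulate (1.25 ± 0.29, adjusted p = 0.0161) and in the combination (1.84 ± 0.29, adjusted p = 0.00396). XIAP and the early-response gene IER3 passed in the combination against control (0.90 ± 0.18, adjusted p = 0.0113 and 0.71 ± 0.18, adjusted p = 0.0291). They did not differ beyond the threshold between the combination and particulate (0.39 ± 0.18, adjusted p = 0.293 and 0.24 ± 0.18, adjusted p = 0.496). Against fucoidan, XIAP passed in the combination (0.67 ± 0.18, adjusted p = 0.0282) and IER3 did not (0.16 ± 0.18, adjusted p = 0.552, edgeR). IER3 had 437 and 357 CPM in control, 585 and 576 with fucoidan and 564 and 539 with particulate. GADD45B, a stress gene often listed as an NF-kB target, fell from 219 and 183 CPM in control to 71.4 and 65.3 CPM with particulate (-1.56 ± 0.15, adjusted p = 0.000166).

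Of 7 other adhesion receptor genes, 1 rose and 3 fell with particulate. CD44, the hyaluronan receptor, went from 684 and 738 CPM to 1635 and 1787 CPM with particulate and 1829 and 1534 CPM in the combination (1.27 ± 0.15, adjusted p = 0.000464 and 1.24 ± 0.15, adjusted p = 0.000893, edgeR). ALCAM, a homophilic adhesion molecule, fell from 682 and 750.3 CPM to 307 and 414 CPM (-0.99 ± 0.17, adjusted p = 0.00391). F11R, a tight-junction adhesion molecule (-0.96 ± 0.16, adjusted p = 0.00346), and MCAM (-0.78 ± 0.19, adjusted p = 0.0191) fell as well. Of the 8 other pentraxin and PTX3 partner genes, 7 had too few reads to be tested and none passed.

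The pathway calls depended on single libraries, and so did the number of all genes called. With particulate, 5 of the 16 called pathway genes (IL1R1, GADD45B, CD44, F11R and ALCAM) passed in all 8 fits without 1 library, and the other 11 were lost in 2 to 6 of them, at a highest adjusted p between 0.0977 and 0.278 (edgeR). In the combination 2 of 16, IL1R1 and CD44, passed in all 8, and the other 14 were lost in 1 to 5, at a highest adjusted p between 0.0557 and 0.250. Without combination replicate 1, 5 of the 16 were lost, TRAF6, TBK1, TRAF3, NFKBIB and IER3 (adjusted p from 0.0574 to 0.129), while IL1R1 (2.05 ± 0.27, adjusted p = 0.000670), CD44 (1.12 ± 0.14, adjusted p = 0.000668), TRAF1 (1.45 ± 0.25, adjusted p = 0.00380), XIAP (0.95 ± 0.20, adjusted p = 0.00973) and BIRC2 (0.66 ± 0.19, adjusted p = 0.0393) were among those that passed. The count of called pathway genes with particulate fell without any 1 control, fucoidan or particulate library. It rose without either combination library, and the number of all genes called moved in the same directions.

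To place each member, the genes with the most similar pattern over the 8 libraries were listed by the root mean square difference of log2 CPM after centring each gene, among 10919 genes. Nearness here is a description of these 8 libraries and says nothing of shared function or control. NFKB1 and NFKB2 were 0.083 apart, so that NFKB1 was the nearest gene to NFKB2 and NFKB2 the second nearest to NFKB1, after SLC25A25 (0.076). Other members were far apart, such as PTX3 and NFKB1 (1.36), with 10707 genes nearer to NFKB1 than PTX3 was. The nearest to NFKBIA were PPP2R5B (0.143), OSMR (0.151), the oncostatin M receptor gene, and NFKB1 (0.161). ICAM1 was nearest to SESN2 (0.129), MXD1 (0.168) and CD274 (0.169), which encodes the immune checkpoint ligand PD-L1. TNFAIP3 and BIRC3 shared PDE4D and ERRFI1, a feedback inhibitor of the EGF receptor, among their nearest 3, and TNFAIP3 was nearest to PAG1 (0.327) and BIRC3 to KBTBD8 (0.334). RELB was nearest to CEBPG (0.124), SLC1A4 (0.131) and MTHFD2 (0.151), RELA to VPS37B (0.048), CSNK1E (0.062) and MKNK2 (0.063), and PTX3 to OSGIN1 (0.289), IL6R (0.294) and LUCAT1 (0.378).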

How the data were processed

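The authors deposited whole-number read counts for each gene, and these entered all tests. Per the submitters' processing notes, reads were trimmed with fastp 0.20.0, aligned to GRCh38 with HISAT2 2.1.0 and counted with featureCounts of Subread 2.0.1. TPM were used as deposited, per the file headers, to compare levels between genes. They also served for ratios of genes within each library and for the overlap count in TPM, and entered no test. Per the labels' protocols, libraries were stranded and poly(A)-selected. The annotation release, strand setting and handling of multi-mapping reads are not stated there.

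Of 60623 genes, 33419 had no read. Genes kept by edgeR's filterByExpr (15010) were scaled by TMM and fitted with 1 mean per group over 8 libraries by the quasi-likelihood test of edgeR 4.0.16 in R 4.3.3, which left 4 residual degrees of freedom. P-values were adjusted by Benjamini-Hochberg over all tested genes, threshold 0.05, and the standard error was the log2 fold change over the square root of F. The code was tested on simulated data. Alternatives were DESeq2 1.42.0, limma-voom 3.58.1 with sample weights, RLE scaling, no filter, the replicate number as a block, only the 2 groups compared and each library left out. Log2 CPM used a prior count of 2. Members, lists and rules were chosen with earlier results of these data known: all members are named, from each list up to 4 called genes with the smallest adjusted p per comparison, and the 3 nearest genes (mean of at least 5 CPM) per member.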

Additional observations from a re-analysis of the deposited data

Results flagged for a closer look

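RELB was the one member for which the libraries with fucoidan lay wholly below those without it when no particulate was given, and wholly above when it was: 3.20 and 3.47 CPM with fucoidan lay below 3.61 and 4.22 CPM in control, while 23.3 and 10.5 CPM in the combination lay above 9.69 and 8.31 CPM with particulate. The fitted fold changes had these signs for 7 of the 9 members. Of all tested genes, 24.8% lay wholly below control with fucoidan, and 20.9% lay wholly above particulate in the combination. The share of all genes with both, or with these signs, was not counted. The difference between the 2 effects, the log2 interaction, was 1.13 ± 0.50, adjusted p = 0.897 in edgeR's fit and did not pass. It was 0.45 ± 0.30, adjusted p = 0.909, without combination replicate 1 and 1.59 ± 0.29, adjusted p = 0.0147, without combination replicate 2.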

How the results depend on the processing

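Over the 8 fits without 1 library, called members ran from 1 to 7 for particulate against control (2 with all libraries), 1 to 9 for the combination against control (7), 0 to 9 for the combination against particulate (0), 2 to 9 for the combination against fucoidan (8), 0 to 6 for the interaction (0) and 0 to 0 for fucoidan against control (0). Of the 59 other pathway genes, those called ran from 5 to 23 (16), 2 to 28 (16), 0 to 15 (0), 4 to 31 (19), 0 to 6 (0) and 0 to 0 (0) in the same order. With only the 2 groups compared, members called were 7, 3, 3 and 1 for particulate, the combination (against control and against fucoidan) and fucoidan, and pathway genes 6 for the combination against control, 10 against fucoidan and 4 for fucoidan against control. Without a filter on low counts, members called were 6 with particulate, 4 for the combination against particulate and 2 for the interaction, with 5 pathway genes for the combination against particulate. In that fit 148 of 27204 genes rose in the interaction. Limma-voom with sample weights called 6 members with particulate and 2 pathway genes with fucoidan, and DESeq2 1 pathway gene for the combination against particulate. Of 15010 genes, limma-voom called 176 higher and 137 lower with fucoidan. DESeq2 called 260 higher and 46 lower for the combination against particulate. RLE scaling left all member counts as they were. The number of all genes called also moved between fits, as the shares given above show for some of them. These counts therefore do not describe the members alone. The replicate numbers pair nothing in the labels, and deviations of same-numbered libraries correlated between -0.25 and 0.075. With the number as a block, the replicate block, 1 member passed with particulate, 6 for the combination against control and 7 against fucoidan. In that fit 1062, 853 and 1192 of 15010 genes rose in these 3 comparisons. For the combination against particulate, the log2 fold changes turned negative without combination replicate 1, with ranges over the 8 fits of -0.38 to 1.18 for NFKBIA, -0.89 to 2.19 for TNFAIP3, -0.053 to 1.07 for NFKB1, -0.15 to 0.96 for NFKB2, -0.21 to 0.53 for RELA, -0.33 to 1.35 for ICAM1 and -0.65 to 0.68 for PTX3, which also turned without particulate replicate 1 (-0.085). The interaction turned negative without combination replicate 1 for TNFAIP3 (-1.35 to 1.73), RELA (-0.12 to 0.62) and ICAM1 (-0.15 to 1.52). That of PTX3 turned positive (-0.85 to 0.49) without fucoidan replicate 1 (0.052), particulate replicate 2 (0.23) or combination replicate 2. The cause of these shifts was not tested. PTX3, RELB and TNFAIP3 rest on few reads in control (38, 117 and 92).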

Other observations

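The balance of inhibitor and subunit messages differed between libraries of the same group. The ratio of NFKBIA to RELA in TPM was 0.856 and 0.820 in control, 0.606 and 0.701 with fucoidan, 0.748 and 1.12 with particulate and 1.46 and 0.826 in the combination. It was lowest in the 2 fucoidan libraries and highest in combination replicate 1, and particulate replicate 1 and combination replicate 2 lay below control replicate 1. The ratio of RELB to RELA did separate the libraries with particulate (0.112 and 0.101, and 0.191 and 0.144 in the combination) from those without (0.0521 and 0.0631 in control and 0.0496 and 0.0549 with fucoidan). The ratio of NFKB2 to RELA did so too, at 0.529 and 0.534 with particulate and 0.717 and 0.556 in the combination against 0.454 and 0.403 in control and 0.366 and 0.394 with fucoidan. These ratios were chosen after the values had been seen and were not tested.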
